A study of Homo sapiens with 6 samples.

Results

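DEAD and DEAH box RNA helicases were taken as the genes whose symbol begins with DDX or DHX followed by a number. They numbered 40 of the 7682 genes in the table of expression values and half-lives, 28 DDX and 12 DHX genes. The cells were HEK293, a human embryonic kidney line, which had been given MOV10 siRNA or a mock transfection; both kinds received 700 µM 4-thiouridine (4SU) for 60 min. 4SU is a uridine analogue that enters newly made RNA and lets that RNA be pulled out with biotin and streptavidin. Poly(A)+ libraries were made from total RNA, from the 4SU-labelled RNA and from the flow-through, the RNA left unlabelled. Each of the 6 groups is a single GEO sample, but the table gives 2 replicate columns for each, and no label says that they came from separate cultures, so p-values measure the spread between these columns, which may be technical. What the mock transfection contained is not stated.

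DEAD and DEAH box proteins use ATP to unwind short RNA duplexes or to strip proteins from RNA. They are named after residues of the Walker B motif, which binds the magnesium ion of ATP: aspartate, glutamate, alanine and then aspartate or histidine. DEAD box proteins mostly open duplexes locally, whereas DEAH box proteins move along a strand, and both drive splicing, ribosome assembly, export, translation and decay. MOV10, the target of the siRNA, is itself an RNA helicase, of another superfamily than the DDX and DHX proteins.

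The names were checked against the box in the coding sequence of 1 GENCODE release 29 transcript per gene (GRCh38, another build than the hg18 of the submitters). Of 28 DDX genes 24 encode DEAD, DDX11 encodes DEAH, and DDX21, DDX50 and DDX52 encode a variant. Of 12 DHX genes 8 encode DEAH, and DHX32, DHX34, DHX36 and DHX57 encode a variant. The windows below give the box in capitals, with 9 coding bases on either side, for genes on which the results turn and for the near pairs.
DDX23: gtggttctgGATGAGGCAGATaggatgatt
DDX42: cttgtgtttGATGAAGCAGATcgaatgttt
DDX24: ctggtagtgGATGAGGCTGACcggatggtt
DHX8: atcatgttgGACGAGGCACATgagaggaca
DDX28: ttggtgttgGATGAGGCAGACacactgctg
DDX20: tttattcttGATGAAGCAGATaagctttta
DDX5: cttgtccttGATGAAGCAGATagaatgctt
DDX17: cttgtattgGACGAAGCTGACagaatgctt
DDX21: gttgtcctgGATGAAGTGGACcagatgttg
DDX50: gttgtgcttGATGAAGTGGATcagatgtta
DDX19A: tttgttctgGATGAGGCTGATgtcatgata
DDX19B: tttgttctgGATGAGGCTGATgtcatgata
DHX36: atcgtacttGATGAAATCCATgaaagaaat
DHX32: atcatcttaGATGATATTCATgaaagaagc
The DDX28 window lies at chr16:68022327-68022356 on the minus strand, in exon 1 of a gene with a single exon. The DDX23 window lies at chr12:48833415-48833444 in exon 13 and the DDX5 window at chr17:64503236-64503265 in exon 7, both on the minus strand. The DHX8 window lies at chr17:43507623-43507652 in exon 14 and the DDX42 window at chr17:63809617-63809646 in exon 12, both on the plus strand. DDX19A and DDX19B, whose products work in mRNA export at the nuclear pore, share every base of their windows. In their whole transcripts, 16.98% of the 100-base windows of DDX19A and 15.0% of those of DDX19B occurred in the other, so with the 100-cycle reads used their values are uncertain. DDX5 and DDX17 shared 0 such windows, as did DDX21 and DDX50.

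MOV10 total RNA was 3.53 and 3.64 in the MOV10 siRNA columns, against 13.1 and 14.6 in mock. The values are the authors' normalised expression signal, whose unit is not named, so they are compared here between conditions within a gene and not between genes. The depth of the libraries is not known from the table, and the lowest expression value in it is 1.00. All 40 helicase genes passed the floor, which asked for a total RNA mean of at least 5 in MOV10 siRNA and in mock cells, as did 6064 genes in all. Of 8 HEK293 marker genes 4 were in the table (VIM, NEFL, LIN28B and IGF2BP1), and 0 of 13 markers of blood, endothelium, liver, muscle and fibroblasts were. Over all genes the second MOV10 siRNA half-life column stood apart, with a median of 900.0 min, against 668 min in the first and 657 and 713 min in the mock columns. Changes are differences of mean log2(value + 1), or of mean log2 half-life, MOV10 siRNA minus mock, relative to the median gene of each column; they understate the change of low genes. Before that centring the median gene differed by 0.14 in labelled RNA, 0.19 in half-life, -0.02 in total RNA and -0.02 in flow-through RNA. A gene is said to have risen or fallen where limma, a linear model with variances moderated across genes, gave a Benjamini-Hochberg adjusted p under 0.05 over the 6064 genes.

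The half-lives of the helicase mRNAs in mock cells ran from under 1 h to over 1 day. Their median was 779 min, against 686 min for all genes, with 727 min for DDX and 850.2 min for DHX genes. The 12 DHX genes ranged from 364 to 1255 min, with quartiles of 608 and 1000.4 min, and the 28 DDX genes from 52.1 to 1685 min, with quartiles of 461 and 869.8 min. Below the lower quartile of all genes, 374 min, lay 6 DDX genes and 1 DHX gene, and above the upper quartile, 1119 min, 4 DDX genes and 1 DHX gene. Half-lives are the authors' own, and their unit was read as minutes from a recalculation. In that recalculation, which used first-order decay over the 60 min of labelling, the mock medians were 548 min for DDX and 619 min for DHX genes. The median of the 40 genes was then 566 min, close to the 564 min of all genes, and the DDX median lay below that of all genes. The longest recalculated mock mean was 1364 min (DDX1), under 1 day. The order shifted as well: DDX27 (1153 min) came above DDX46 (1070 min), and DDX49 moved from place 19 to 33.

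The shortest-lived helicase mRNA was DDX28, which encodes a helicase of mitochondrial ribosome assembly. Its half-life was 43.1 and 70.7 min in the MOV10 siRNA columns and 48.7 and 55.6 min in the mock columns, so the siRNA columns enclosed the mock ones. Only 0.443% of all genes had a mock half-life as short or shorter. DDX20, also called Gemin3, a member of the SMN complex that assembles spliceosomal RNPs, came next with 140.2 and 157 min in MOV10 siRNA cells, against 124 and 140.2 min in mock cells. DDX31, whose yeast relative Dbp7 acts in ribosome assembly, followed with 263 and 355 min in MOV10 siRNA cells, against 254 and 219 min in mock cells. These 3 genes did not overlap with each other in their mock columns, and DDX31 did not overlap with the next gene, DDX55.

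At the long end, DDX1, a member of the tRNA ligase complex, had 1711 and 2324 min in MOV10 siRNA cells, against 1537 and 1834 min in mock cells. DDX46, the human counterpart of the yeast branch-site helicase Prp5, had 1635 and 2226 min in MOV10 siRNA cells, against 1588 and 1644 min in mock cells. DDX27 had 1197 and 1693 min in MOV10 siRNA cells, against 1159 and 1401 min in mock cells. DDX46 overlapped with DDX1 in mock cells but not with DDX27.

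Among DHX genes DHX40 was the longest lived, with 1568 and 1790.1 min in MOV10 siRNA cells, against 1201 and 1310 min in mock cells. DHX16, the counterpart of yeast Prp2, and DHX15, that of yeast Prp43, followed it with mock means of 1063 and 1025 min. DHX8, the counterpart of yeast Prp22, which releases the spliced mRNA, was the shortest lived, with 329 and 442 min in MOV10 siRNA cells, against 328 and 399.9 min in mock cells. DHX34, which takes part in nonsense-mediated decay, and DHX35 came after it with mock means of 449 and 546 min. In the order of all 40 mock means, neighbours did not overlap at DDX28, DDX20, DDX31 and DDX55, between DDX54 and DHX32, between DHX38 and DDX59, between DDX11 and DHX40, and between DDX27 and DDX46. All other neighbours overlapped.

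**Figure D1:**
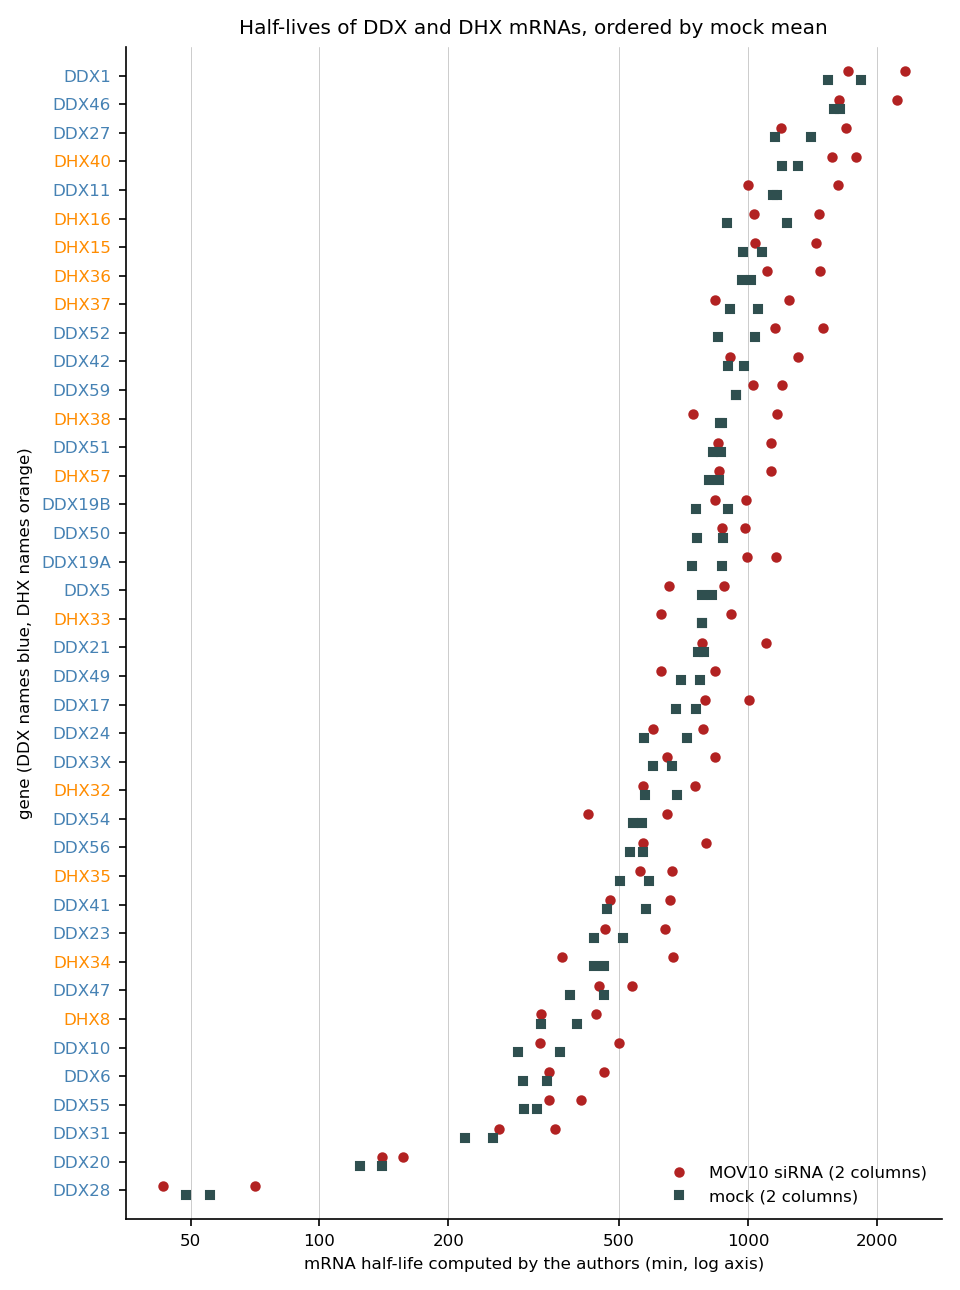
Half-life in minutes (log axis) of each of the 40 DDX and DHX mRNAs, ordered by mock mean; red circles are the 2 MOV10 siRNA columns and dark squares the 2 mock columns. DDX28 and DDX20 stand far left of the others, and the rightmost point of each gene is a MOV10 siRNA column, the second one.

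None of the 40 half-lives passed the test. Among all genes the half-life was higher in MOV10 siRNA than in mock cells for 1.88% and lower for 4.27%. At an unadjusted limma p under 0.05 there were 5 helicase genes, and 5 also without the variance trend and 5 with the recalculated half-lives; such a p was reached by 24.3% of all genes. Those 5 were DDX52, with a log2 change of 0.29 ± 0.099 (SE) and a limma adjusted p of 0.132, DDX54 with -0.28 (0.149), DDX5 with -0.27 (0.11), DHX33 with -0.25 (0.183) and DDX49 with -0.21 (0.187). DDX52 had 1159 and 1500 min in MOV10 siRNA cells, against 850.2 and 1040 min in mock cells, and its columns did not overlap. The columns of the other 4 genes did overlap before centring. Among the 5 with the recalculated half-lives, DDX6 (change 0.21, limma adjusted p = 0.193) stood in place of DHX33 (-0.17, limma adjusted p = 0.299). The median change was 0.03 in DDX genes, -0.04 in DHX genes and 0.0026 in all genes. Without the second MOV10 siRNA column none of the 40 passed either, and the medians were 0.04 in DDX and -0.06 in DHX genes. Without centring on the median gene the medians were 0.22 in DDX and 0.15 in DHX genes, so the sign of the DHX median depends on the centring. A first-order decay term of the deposited half-life followed the ratio of labelled to flow-through RNA, times a column factor and a gene factor. The median factor ran from 0.0856 in the second MOV10 siRNA column to 0.132 in the first mock column. After removal of a smooth trend per column in the gene factor, the residual SD was 0.0023 to 0.0036 on the log2 scale. Total RNA was not a term in this relation, by which a half-life can stay level when labelled and flow-through RNA move together.

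In total RNA, 4 helicase genes fell and 2 rose, where 14.3% of all genes fell and 12.9% rose. DDX5, the p68 helicase that works in transcription and splicing, had values of 93.1 and 94.5 in MOV10 siRNA cells, against 127 and 124 in mock cells. Both siRNA columns lay well below both mock columns, a log2 change of -0.40 ± 0.065 (SE; limma adjusted p = 0.00052). This was the only one of the 6 calls that held whichever of the 4 columns was left out. DDX17, the close relative of DDX5, had total RNA values of 82.7 and 88.5 in MOV10 siRNA cells, against 74.5 and 79.2 in mock cells, a change of 0.17 that did not pass (limma adjusted p = 0.0698).

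DDX28 total RNA was 7.20 and 8.10 in MOV10 siRNA cells, against 9.99 and 10.8 in mock cells, and it fell by 0.38 on the log2 scale (limma adjusted p = 0.00702). DDX41, a spliceosome helicase also known as a sensor of cytosolic DNA, had 13.0 and 13.3 in MOV10 siRNA cells, against 15.6 and 19.1 in mock cells, and fell by 0.35 (limma adjusted p = 0.00878). Both calls were lost without MOV10 siRNA replicate 1 and without mock replicate 2, with an adjusted p of up to 0.12 for DDX28 and 0.0662 for DDX41. DHX32 had 14.4 in both MOV10 siRNA columns, against 17.8 and 17.5 in mock cells, and fell by 0.25 (limma adjusted p = 0.0271). DDX6, the decapping activator and repressor of translation, had 20.2 and 19.4 in MOV10 siRNA cells, against 17.4 and 16.02 in mock cells, and rose by 0.25 (limma adjusted p = 0.0381). DDX52, whose yeast relative Rok1 acts in small-subunit assembly, had 21.5 and 19.8 in MOV10 siRNA cells, against 17.5 and 17.6 in mock cells, and rose by 0.24 (limma adjusted p = 0.032). In each of these 3 genes the groups did not overlap, yet the call held for only 1 of the 4 columns left out, mock replicate 1 for DDX6 and DDX52 and mock replicate 2 for DHX32; the adjusted p otherwise reached 0.215, 0.319 and 0.195. Leaving out 1 column gave 0 to 5 risen and 1 to 3 fallen helicase genes. Without centring, 0 rose and 4 fell.

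Labelled RNA rose for 9 helicase genes and fell for 1, where 9.88% of all genes rose and 11.5% fell; without centring 20 rose and 0 fell. Flow-through RNA rose for 21 and fell for 5, where 31.7% of all genes rose and 26.8% fell. All 9 genes that rose in labelled RNA also rose in flow-through RNA, and none of the 9 passed in total RNA: DDX10, DDX23, DDX24, DDX27, DDX42, DDX46, DDX50, DDX55 and DHX8. Of all genes 6.20% showed that combination and 8.18% rose in both fractions whatever total RNA did. Not passing does not show that total RNA stayed level, and DDX46 came near the threshold there (change 0.19, limma adjusted p = 0.0704). The median change of the 40 genes was 0.12 in labelled and 0.17 in flow-through RNA, against 0.0045 and 0.03 in all genes. Labelled and flow-through RNA are the 2 fractions into which total RNA was split.

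**Figure D2:**
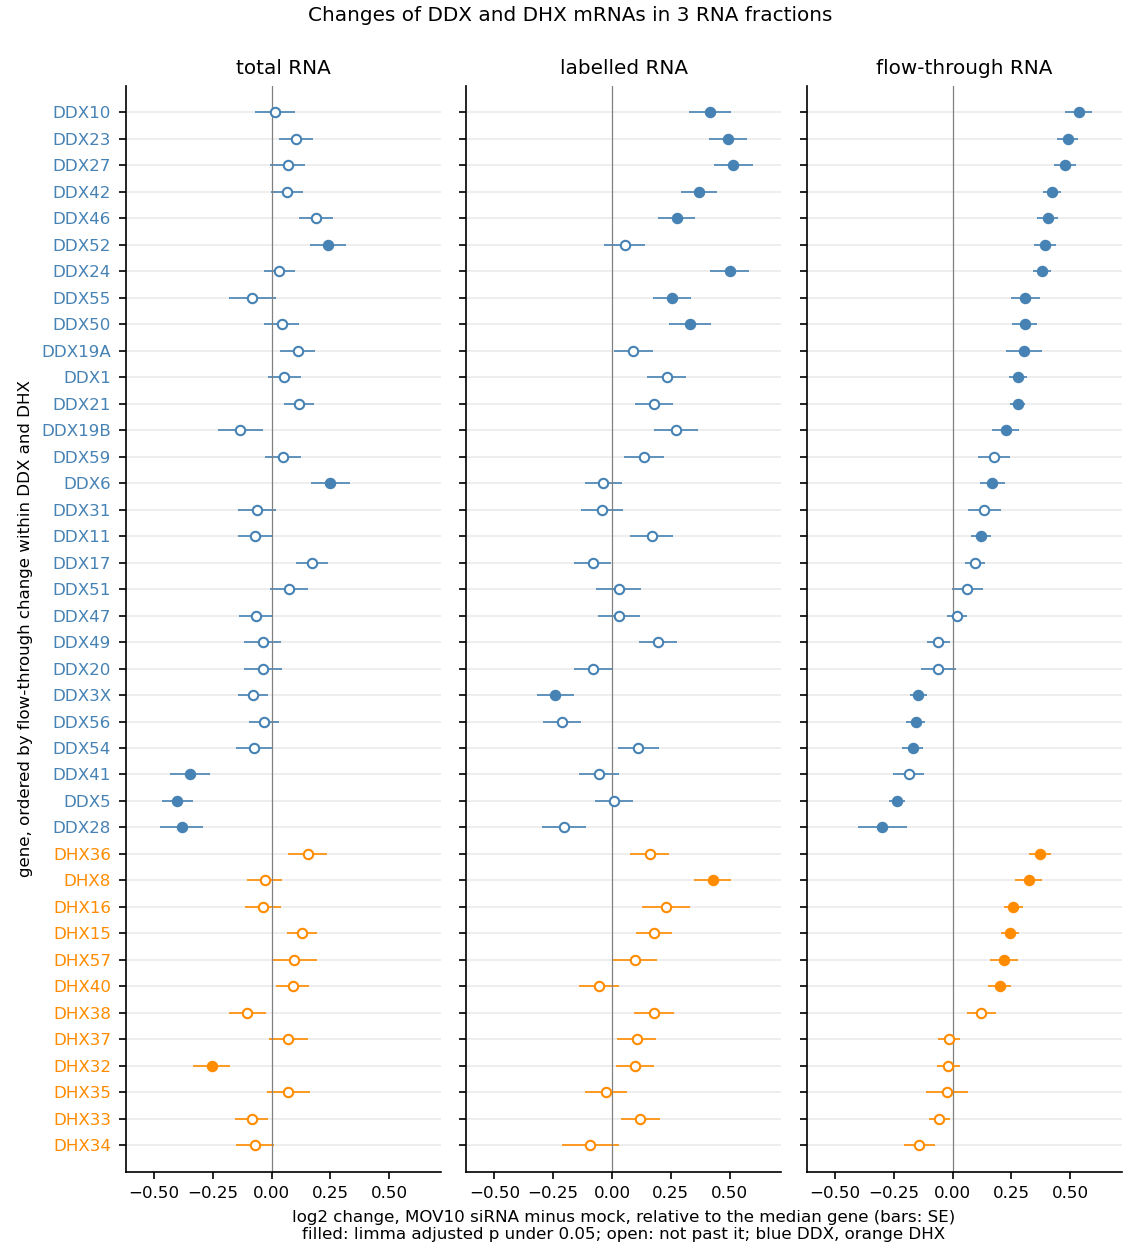
Log2 change, MOV10 siRNA minus mock and relative to the median gene, of each helicase gene in total, labelled and flow-through RNA (points, with SE bars); filled points passed limma at an adjusted p under 0.05. Filled points to the right of 0 number 2 for total RNA, 9 for labelled RNA and 21 for flow-through RNA.

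Spliceosome helicases made up 11 of the 40 genes. Of these 11, 4 rose and 0 fell in labelled RNA, 6 rose and 1 fell in flow-through RNA, and 0 rose and 2 fell in total RNA. Of all genes 9.88% rose and 11.5% fell in labelled RNA, 31.7% and 26.8% in flow-through RNA, and 12.9% and 14.3% in total RNA, so the 2 falls in total RNA are near the share of all genes. DDX23, the human Prp28, which helps exchange U1 for U6 at the 5′ splice site, had labelled values of 36.6 and 37.5 in MOV10 siRNA cells, against 25.6 and 21.7 in mock cells. Its flow-through values were 47.1 and 49.4 in MOV10 siRNA cells, against 35.0 and 33.9 in mock cells. The groups were well apart in both fractions, with log2 changes of 0.49 in each (limma adjusted p = 0.00232 labelled, 0.000501 flow-through). In total RNA DDX23 had 28.2 and 27.9 in MOV10 siRNA cells, against 24.8 and 28.0 in mock cells, and the groups overlapped.

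DDX42, a helicase bound to the U2 snRNP, had labelled values of 34.1 and 34.0 in MOV10 siRNA cells, against 24.3 and 23.1 in mock cells. Its flow-through values were 81.7 and 84.6 in MOV10 siRNA cells, against 62.6 and 62.4 in mock cells. DDX42 thus rose by 0.37 and 0.42 on the log2 scale (limma adjusted p = 0.00715 and 0.000501), while total RNA had 49.8 and 49.5 in MOV10 siRNA cells, against 48.0 in both mock columns (change 0.07). DHX8 had labelled values of 31.0 and 30.7 in MOV10 siRNA cells, against 21.7 and 19.5 in mock cells, a rise of 0.43 (limma adjusted p = 0.00384). In flow-through RNA DHX8 had 26.0 and 25.2 in MOV10 siRNA cells, against 19.9 and 21.2 in mock cells, a rise of 0.32 (limma adjusted p = 0.00506). DDX46 rose by 0.28 in labelled and 0.40 in flow-through RNA. Its total values were 46.2 and 41.8 in MOV10 siRNA cells, against 39.0 and 38.8 in mock cells, without overlap. DHX15 and DHX16 rose in flow-through RNA, by 0.24 and 0.26, with labelled changes of 0.18 and 0.23 that did not pass. DHX35 and DHX38, the counterpart of yeast Prp16, passed in no fraction.

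DDX5 was the spliceosome helicase that fell in flow-through RNA. Its values there were 142 and 145 in MOV10 siRNA cells, against 174 and 168 in mock cells, a log2 change of -0.24 (limma adjusted p = 0.00205). Its labelled values were 84.4 and 89.4 in MOV10 siRNA cells, against 80.5 and 76.4 in mock cells, a change of 0.01 that did not pass. Before centring the labelled columns of DDX5 thus lay above mock while its total and flow-through columns lay below it.

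Ribosome biogenesis helicases made up 15 of the 40 genes, most of them nucleolar proteins with a yeast relative. Of these 15, 5 rose and 0 fell in labelled RNA, 7 rose and 2 fell in flow-through RNA, and 1 rose and 0 fell in total RNA; the shares of all genes that rose were 9.88%, 31.7% and 12.9%, and of those that fell 11.5%, 26.8% and 14.3%. DDX27, related to yeast Drs1 of the large subunit, had labelled values of 15.0 and 14.4 in MOV10 siRNA cells, against 9.55 and 8.51 in mock cells. Its flow-through values were 54.9 and 55.6 in MOV10 siRNA cells, against 38.9 and 40.9 in mock cells. Its rise of 0.51 in labelled RNA was the highest of the 40 genes (limma adjusted p = 0.00202), beside 0.48 in flow-through RNA (0.000651). Total RNA of DDX27 had 29.6 and 29.8 in MOV10 siRNA cells, against 29.04 and 28.3 in mock cells (change 0.07, adjusted p = 0.529 by limma).

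DDX24, related to yeast Mak5, had labelled values of 57.7 and 59.2 in MOV10 siRNA cells, against 40.8 and 34.0 in mock cells, a rise of 0.50 (limma adjusted p = 0.00258). In flow-through RNA DDX24 had 96.8 and 96.3 in MOV10 siRNA cells, against 74.0 and 75.7 in mock cells, a rise of 0.38 (limma adjusted p = 0.000701). DDX10, related to yeast Dbp4, had flow-through values of 21.2 and 22.8 in MOV10 siRNA cells, against 15.1 and 14.9 in mock cells. That rise of 0.54 was the highest flow-through change of the 40 genes (limma adjusted p = 0.000728). The labelled values of DDX10 were 24.7 and 23.4 in MOV10 siRNA cells, against 17.9 and 14.4 in mock cells (rise 0.42). DDX55, related to yeast Spb4, rose by 0.26 in labelled and 0.31 in flow-through RNA.

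DDX50 and DDX21 are nucleolar paralogues with the same variant box. DDX50 had labelled values of 22.3 and 25.5 in MOV10 siRNA cells, against 18.5 and 15.5 in mock cells, and rose by 0.33; in flow-through RNA it rose by 0.31. DDX21 had flow-through values of 269 and 266 in MOV10 siRNA cells, against 226 and 221 in mock cells, and rose by 0.28, with a labelled change of 0.18 that did not pass (limma adjusted p = 0.142). DDX54 and DDX56, related to yeast Dbp10 and Dbp9 of the large subunit, fell in flow-through RNA, by 0.17 and 0.16, and DDX52 rose there by 0.39. DDX31, DDX47, DDX49, DDX51, DHX33 and DHX37 passed in no fraction.

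A list named for export, translation and mRNA turnover made up 7 of the 40 genes. It is a mixed list: it holds DDX1 and DDX20, whose complexes named above have other roles, and leaves out DHX34. Of the 7, 5 rose and 1 fell in flow-through RNA, 0 rose and 1 fell in labelled RNA, and 1 rose and 0 fell in total RNA. Of all genes 31.7% rose and 26.8% fell in flow-through RNA, 11.5% fell in labelled RNA and 12.9% rose in total RNA, and the counts of 1 in 7 are near these last shares. DHX36, which unwinds G-quadruplexes, had flow-through values of 28.98 and 28.9 in MOV10 siRNA cells, against 22.5 and 22.3 in mock cells, a rise of 0.37 (limma adjusted p = 0.00133). DDX1 rose by 0.28, DDX6 by 0.17, DDX19A by 0.30 and DDX19B by 0.23 in flow-through RNA. DDX3X, which helps ribosomes scan structured leaders, was the single helicase gene that fell in labelled RNA. DDX3X had labelled values of 67.6 and 71.7 in MOV10 siRNA cells, against 76.998 and 72.9 in mock cells, so the columns were close and the change of -0.24 (limma adjusted p = 0.0485) was lost whichever 1 column was left out. Its flow-through values were 107 and 105 in MOV10 siRNA cells, against 119 in both mock columns (change -0.15, limma adjusted p = 0.0173). Of all genes 8.69% fell in both fractions, and 4.78% did so without passing in total RNA, as DDX3X did. DDX20 passed in no fraction.

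Outside these groups, DDX28 had flow-through values of 4.91 and 6.12 in MOV10 siRNA cells, against 6.84 and 7.30 in mock cells, a fall of 0.30 (limma adjusted p = 0.0483). Labelled RNA of DDX28 was 59.7 and 50.4 in MOV10 siRNA cells and 60.3 and 54.9 in mock cells, a change of -0.21 that did not pass (limma adjusted p = 0.144). DDX28 thus fell in total and flow-through RNA, and its labelled value was higher than its flow-through value in every replicate, with each fraction normalised separately. DDX11, a DNA helicase of sister chromatid cohesion, rose by 0.12, DHX40 by 0.20 and DHX57 by 0.22 in flow-through RNA. Near-identical copies of DDX11 elsewhere in the genome make its value uncertain.

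**Figure D3:**
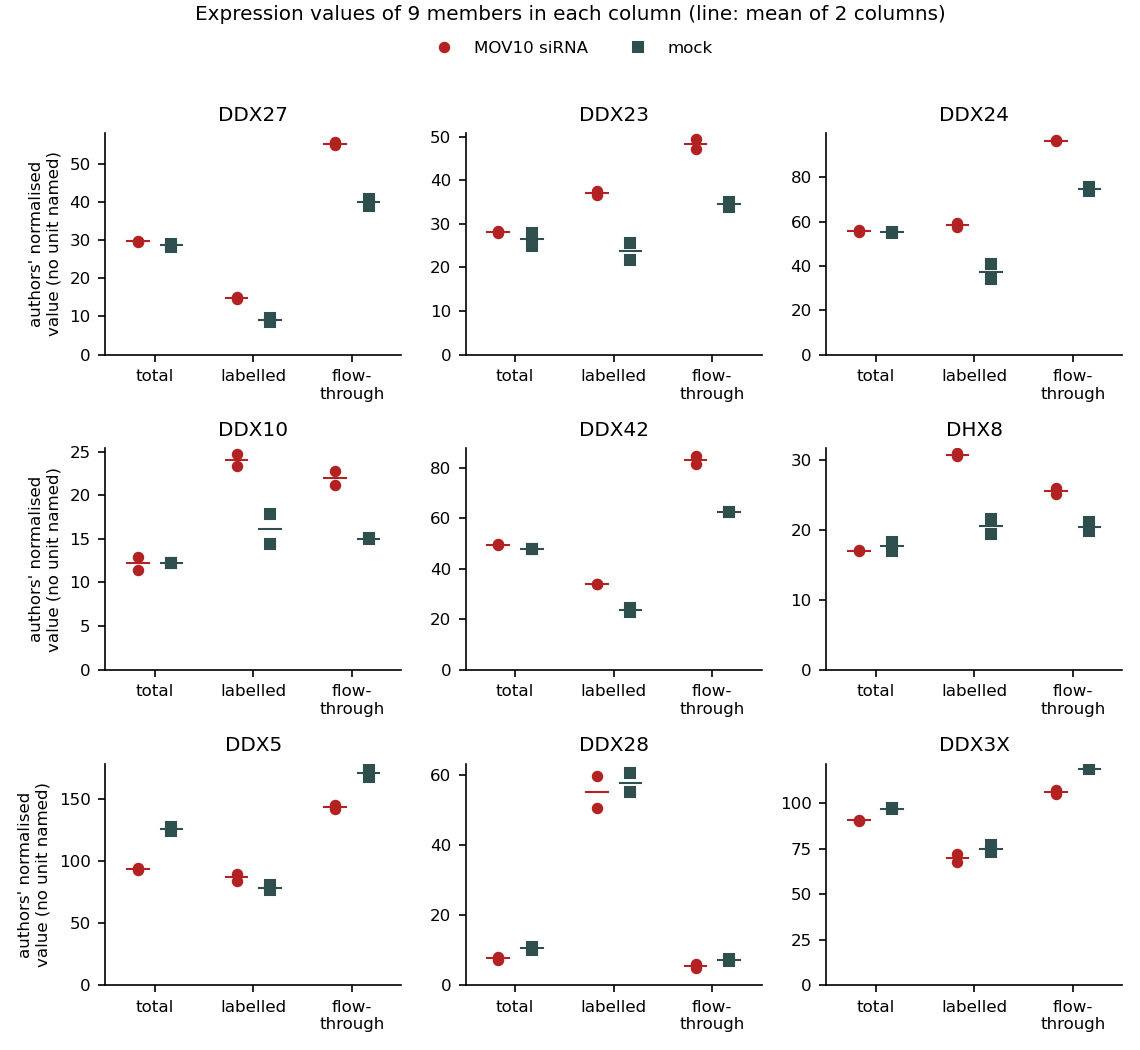
Authors' normalised expression value (no unit named; axes start at 0) of 9 helicase genes in total, labelled and flow-through RNA, with MOV10 siRNA columns (red circles) left of mock columns (dark squares) and a line at each mean of 2. DDX27, DDX23, DDX24, DDX10, DDX42 and DHX8 are apart in labelled and flow-through RNA and close in total RNA, DDX5 is apart in total and flow-through RNA, and DDX28 has its highest values in labelled RNA.

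Of the 10 labelled calls, 6 held whichever column was left out, those of DDX10, DDX23, DDX24, DDX27, DDX42 and DHX8. DDX50 and DDX55 lost theirs without MOV10 siRNA replicate 2 (adjusted p up to 0.123 and 0.232) or mock replicate 2, and DDX46 and DDX3X whichever 1 column was left out. Of the 26 flow-through calls 16 held, and those of DDX6, DDX11 and DHX57 were lost whichever 1 column was left out. DDX3X, DDX54 and DDX56 lost theirs without MOV10 siRNA replicate 2 or either mock column, DDX28 and DHX40 without MOV10 siRNA replicate 1 or either mock column, DDX19B without replicate 1 of either condition, and DDX19A without mock replicate 1. Over the flow-through calls that were lost, the adjusted p without a column reached 0.185 (DDX28).

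Whether a fraction changed differently from total RNA was tested with an interaction term over 8 columns, a comparison chosen after the changes above were seen. Flow-through RNA changed more upward than total RNA for 6 helicase genes and more downward for 0, where 6.28% and 5.62% of all genes did so. The 6 were DDX10, with a difference of 0.52 log2 units (limma adjusted p = 0.0136), DDX27 with 0.41, DDX23 with 0.38, DDX42 with 0.36, and DDX24 and DHX8 with 0.35 each. Labelled RNA changed more upward than total RNA for 8 and more downward for 0, where 8.44% and 8.06% of all genes did so. Those 8 were the same 6 genes, between 0.30 (DDX42) and 0.47 (DDX24), together with DDX5 at 0.41 and DHX32 at 0.35. In DDX5 and DHX32 it was total RNA that fell, while labelled RNA did not pass. DDX46, DDX50 and DDX55, which also rose in labelled and flow-through RNA, passed neither test against total RNA. No difference call of these 14 held whichever column was left out, and without MOV10 siRNA replicate 1 none of the 40 genes passed either test; the flow-through test had 0 also without MOV10 siRNA replicate 2 or mock replicate 1. Leaving out a column in these tests meant leaving out that replicate in both fractions, so the check differs from that of single fractions. The model treats fractions of the same cells as independent columns.

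**Figure D4:**
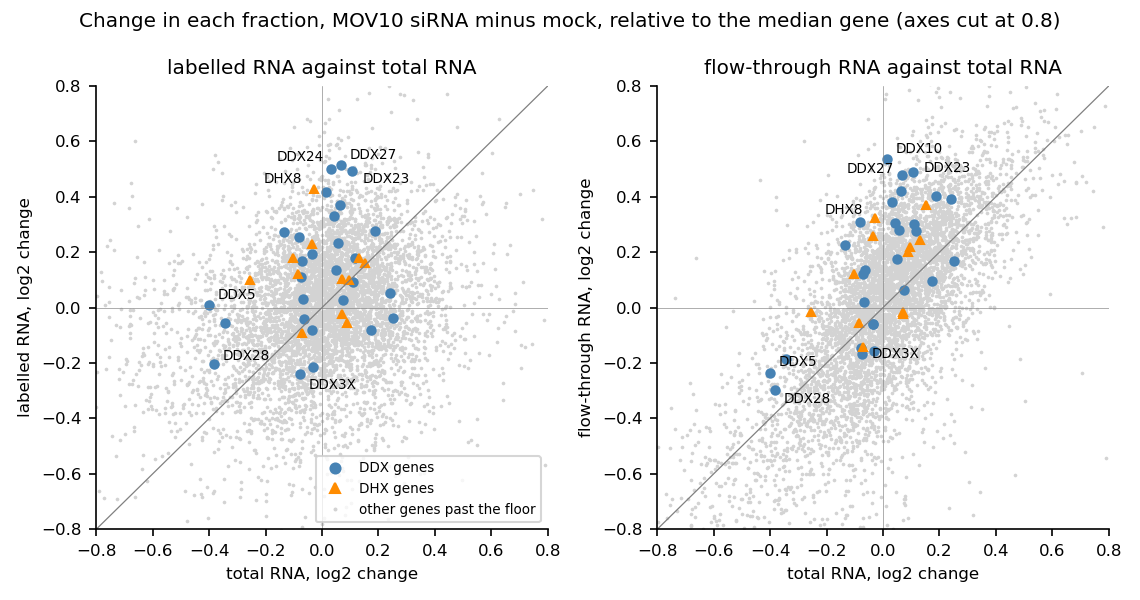
Log2 change (MOV10 siRNA minus mock, relative to the median gene) in labelled RNA (left) and flow-through RNA (right) against that in total RNA; blue circles are DDX genes, orange triangles DHX genes, grey points the other genes past the floor, and the diagonal marks equal change. DDX27, DDX23 and DHX8 lie above the diagonal in both panels, and DDX5 and DDX28 lie left of 0.

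Labelled and flow-through changes were also compared with each other, as a change called in only one fraction needs that test. No helicase gene differed between them by limma, where 4.47% of all genes changed more upward in flow-through RNA and 5.92% more downward. The deposited half-lives followed the ratio of these same fractions, so this result is not independent of the half-life test. At an unadjusted p under 0.05 there were 7 helicase genes, and 7 without the variance trend. The nearest to the threshold was DDX52, whose flow-through change exceeded its labelled change by 0.34 (limma adjusted p = 0.0518), followed by DDX5 at -0.24 (0.0613). Risen flow-through RNA without a labelled call, as in DHX15, DHX16, DHX36 or DDX21, is therefore not shown to be confined to the flow-through.

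DDX and DHX genes had close median changes in 3 fractions. The median change in flow-through RNA was 0.17 for DDX and 0.16 for DHX genes, in labelled RNA 0.12 and 0.11, and in total RNA 0.02 and 0.02. In flow-through RNA 15 of 28 DDX genes rose and 5 fell, and 6 of 12 DHX genes rose and 0 fell, where 31.7% of all genes rose and 26.8% fell. In labelled RNA 8 DDX genes and 1 DHX gene, DHX8, rose, where 9.88% of all genes rose, a share that 1 of 12 does not exceed. The median difference of labelled from total change was 0.18 for DDX and 0.04 for DHX genes, against 0.0064 for all genes. These are descriptions of 28 and 12 genes, with no test between the families.

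The transcripts of DHX genes had more exons, with a median of 21, than those of DDX genes, with 15, and all genes, with 9. Their coding sequences were longer as well, with medians of 3077 bases for DHX, 2096 for DDX and 1389 for all genes. Across the 40 genes the mock half-life was longer with more exons (Spearman 0.41, or 0.36 without the single-exon DDX28), against 0.44 over the 5675 genes past the floor with a transcript. These are the deposited half-lives, whose factor per gene followed the number of uridines in the transcript (Spearman -0.827 over 7190 genes). The comparison with exons was not repeated on recalculated half-lives. The half-life change ran against GC content (Spearman -0.53 over the 40 genes, -0.36 over all). So did the flow-through change (-0.40 and -0.39) and the total RNA change (-0.40 and -0.34), whereas the labelled change hardly did (-0.08 and -0.10). All genes share the same 12 expression columns, GC content moved with the half-life, flow-through and total changes, and its part in them was not tested. The sequence ATTTA, the core of AU-rich elements, was found on the transcribed strand of the annotated 3′ UTR of 28 of 40 helicase genes (70.0%), against 71.1% of 7190 genes. This count depends on the transcript chosen for each gene, and that of DDX17 has no annotated 3′ UTR.

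Of 22 listed helicases outside the DDX and DHX names, 12 passed the floor, and of these 4 rose and 1 fell in flow-through RNA, 3 rose and 0 fell in labelled RNA, and 3 rose and 0 fell in total RNA. The flow-through share is near that of all genes, of which 31.7% rose and 26.8% fell, beside 9.88% risen in labelled and 12.9% risen in total RNA. EIF4A3, the exon junction complex helicase, had flow-through values of 133 and 135 in MOV10 siRNA cells, against 105 and 103 in mock cells, and rose by 0.38 (limma adjusted p = 0.000462), with a labelled rise of 0.40 and a total rise of 0.19. UPF1, the helicase of nonsense-mediated decay, passed in no measure, with a half-life change of 0.00071. DICER1, which cuts microRNA precursors, was the single one of 12 with a changed half-life, 301 and 387 min in MOV10 siRNA cells, against 396 and 409 min in mock cells (change -0.43, limma adjusted p = 0.0403). Another list held 29 genes for helicase cofactors, not only those of DDX and DHX proteins. Of these 29 genes, 17 rose and 3 fell in flow-through RNA, and 6 rose and 0 fell in labelled RNA. In total RNA 5 rose and 4 fell, where 14.3% of all genes fell. Among these only GPATCH8, which carries the G-patch by which cofactors bind DEAH helicases, changed in half-life, with 129 and 191 min in MOV10 siRNA cells, against 277 and 275 min in mock cells (change -1.01, limma adjusted p = 0.00584). DHX9, DHX29, DHX30, DDX18, DDX39A, DDX39B, EIF4A1, EIF4A2 and the RNA sensors DDX58, DDX60 and DHX58 had no row in the table used here.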

How the data were processed

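HEK293 cells were mock transfected or given MOV10 siRNA, and 3 RNA fractions were sequenced. The submitters' processing notes name TopHat2 2.06 and the hg18 build; no program for the expression values is named in the labels. The deposited table holds, per gene, a normalised expression signal in 12 columns and the authors' half-life in 4 columns, with no unit named in the header (other unit, read as minutes). Values below 1.00 do not occur, so genes with a lower value are not in the table.

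Genes with a mean total RNA value under 5 in either condition were left out of the tests. limma 3.58.1 (R 4.3.3, with a mean-variance trend) was fitted per measure to 4 columns of log2(value + 1) or log2 half-life, centred on the median gene, and adjusted by Benjamini-Hochberg over 6064 genes. It was tested on simulated data first. Differences between fractions used 8 columns.

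The genes, role lists and alternatives were chosen with earlier results of these data known. Named genes are those past a threshold, the 3 shortest and 3 longest half-lives of each family, close pairs, and a few other helicases. DDX52, DDX54, DHX33 and DDX49 are named for half-life after their values were seen. The 2 tests against total RNA, the relation of half-life to the labelled to flow-through ratio, and exon and GC comparisons were also chosen after seeing the data. The pattern that finds the box was revised until it found a window in all 40 genes. In the recalculated half-lives, total RNA was fitted as a weighted sum of labelled and flow-through RNA, each row divided by total RNA; an unweighted fit was tried and dropped as unstable. The factor per gene in the deposited half-lives correlated with the number of uridines in the transcript (Spearman -0.827 over 7190 genes). Transcripts are the APPRIS principal ones; 3′ UTR lengths depended on that choice and are not reported.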

Additional observations from a re-analysis of the deposited data

Results flagged for a closer look

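The difference between the change of a fraction and the change of total RNA (MOV10 siRNA minus mock in each) passed limma's interaction test 14 times among the 40 helicase genes, in comparisons chosen after the changes were seen. For flow-through minus total RNA the differences were 0.52 in DDX10, 0.41 in DDX27, 0.38 in DDX23, 0.36 in DDX42, 0.35 in DDX24 and 0.35 in DHX8. For labelled minus total RNA they were 0.47 in DDX24, 0.46 in DHX8, 0.45 in DDX27, 0.41 in DDX5, 0.40 in DDX10, 0.39 in DDX23, 0.35 in DHX32 and 0.30 in DDX42. DDX10, DDX23, DDX24, DDX27, DDX42 and DHX8 passed in both tests, and of all genes 6.28% passed upward in the first and 8.44% in the second. Each of the 14 calls was lost for at least 2 of the 4 replicates (2 of MOV10 siRNA and 2 of mock cells) when these were left out 1 at a time.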

How the results depend on the processing

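No change of a helicase gene that passed, and none of the half-life changes of DDX5, DDX49, DDX52, DDX54 and DHX33, turned direction under the alternatives run; the median half-life change of DHX genes, -0.04, did, and those of other single genes were not followed. With a floor of 20, which leaves 21 of the 40 genes, total RNA had 1 risen and 1 fallen gene. The risen gene was neither DDX6 nor DDX52, whose mock means of 16.7 and 17.5 lie under that floor. Labelled RNA had 2 fallen genes and flow-through RNA 12 risen with the floor of 20, and 4 genes differed between labelled and total RNA. The DHX medians were then 0.038 for the half-life change and 1025 min in mock. Without centring, total RNA had 0 risen genes, labelled RNA 20 risen and 0 fallen, 4 genes differed between labelled and flow-through RNA and 16 between labelled and total RNA, and the median half-life changes were 0.22 (DDX) and 0.15 (DHX). Without a floor, and without the variance trend, labelled RNA had 0 fallen genes. Asking for 0.5 log2 units and no overlap left 0 risen and 0 fallen genes in total RNA, 2 and 0 in labelled RNA, 1 and 0 in flow-through RNA, and 1 and 0 genes differing from total RNA in flow-through and labelled RNA. Recalculated half-lives gave mock medians of 548 min (DDX) and 619 min (DHX).

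Leaving out 1 column at a time gave 0 to 5 risen and 1 to 3 fallen genes in total RNA, 6 to 9 risen and 0 to 3 fallen in labelled RNA, 15 to 19 risen and 1 to 4 fallen in flow-through RNA, 0 to 4 differing between flow-through and total RNA and 0 to 4 between labelled and total RNA, and median half-life changes of 0.0060 to 0.041 (DDX) and -0.06 to 0.03 (DHX). These fits leave 1 column in a group, which is assumed to vary like the others. In the tests of differences between fractions, the replicate was left out of both fractions at once. Columns with the same replicate number deviated together little (correlations of 0.05 for total, -0.04 for labelled and 0.11 for flow-through RNA, and -0.07 for half-lives). Low correlations cannot show whether such columns shared a culture or a batch, and no label says so. With a replicate block 4 genes rose in total RNA, 10 in labelled RNA and 20 among flow-through values. The lack of depths and the 2 columns a group limit the precision. The cause of these differences was not tested.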
